A study of Mus musculus with 6 samples.

Results

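Complement is a cascade of plasma proteins and cell surface receptors that marks surfaces for uptake and can perforate membranes. The 36 genes described here were chosen by name, as the components, receptors and regulators of that cascade. The choice was made with earlier results of these data known, so shares set beside those of all genes only describe the list. All 36 were found among the 55401 gene IDs of the deposited count table. They comprise 8 genes of the classical arm, 6 of the lectin arm, 4 of C3 and the alternative arm, 7 of the terminal arm, 4 receptors and 7 regulators. The study sequenced poly(A) RNA of whole mouse kidneys, 3 libraries from mice with diabetic kidney disease (DKD) and 3 from control mice. The labels give only "DKD" or "Control" for each mouse. Strain, age, sex, and the cause and duration of the diabetes are not given in the sources used, nor is it stated that each library is 1 animal. The p-values thus set the difference between the groups only against the spread of these 6 libraries within their groups. Some of that spread may be technical.

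As background, the classical arm starts when C1q binds antibody or altered surfaces and the proteases C1r and C1s cut C4 and C2. The lectin arm starts when mannose-binding lectins, ficolins or collectins carry the MASP proteases to sugars. In the alternative arm, factor B and factor D build a C3 convertase that properdin stabilises. All arms meet at C3, and the terminal components C5 to C9 then assemble the membrane attack complex. The liver makes most of the plasma proteins of the cascade, while C1q is made mainly by macrophages. Renal tubule cells also make C3 and factor B, and kidney complement has long been studied in injury of the glomerulus and the tubules.

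Total counts were 71588579 to 77417638 in the DKD libraries and 64816622 to 72845799 in the control libraries. DKD replicate 1 stood apart from the other DKD libraries. The Pearson correlation of log2 CPM (read counts normalised to library size, here with TMM factors) was 0.930 and 0.923 between DKD replicate 1 and DKD replicates 2 and 3, and 0.944, 0.941 and 0.946 between DKD replicate 1 and control replicates 1 to 3. DKD replicate 1 also held transcripts typical of hepatocytes. The 36 genes of a hepatocyte list summed to 6850 CPM there, to 829 and 948 CPM in DKD replicates 2 and 3, and to 914 to 1155 CPM in the controls. Of those 36 genes, 34 were highest in DKD replicate 1, 24 of them at least 5 times above every other library, and 17 were above 1 CPM in every control kidney. Albumin transcript (Alb) was at 2321 CPM in DKD replicate 1, against 7.20 to 14.7 CPM elsewhere, while Ahsg and Serpina3k were at 376 and 388 CPM there and had no count in any other library. Results for complement genes are therefore given with and without that library.

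With edgeR's quasi-likelihood test on all 6 libraries and Benjamini-Hochberg adjustment over 19197 genes, 0 of 31 tested complement genes passed an adjusted p of 0.05, and neither did any other gene of the table (0% called). At an unadjusted p under 0.05 there were 9 complement genes higher and 3 lower in DKD, where 12.2% of all tested genes were higher and 7.05% lower. DESeq2 on the same libraries gave an adjusted p to 28 of the 31 genes. It called 7 higher and 3 lower, beside 7.08% and 3.28% of the 16874 genes to which it gave an adjusted p. Limma-voom with sample quality weights called 9 higher and 3 lower, beside 9.94% and 7.75%. Mbl2, Fcna, Cfd, C8b and Vsig4 had too few counts in too many libraries to be tested. The median log2 difference of the 31 tested genes was 0.82, beside 0.02 for all tested genes. A gene counted mainly in 1 group passes a low count filter only through that group, so this median describes the genes that passed and not all 36.

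Leaving out DKD replicate 1, the same edgeR test called 18 of 32 complement genes, 13 higher and 5 lower, where it called 9.67% of all genes higher and 5.84% lower. The 13 that rose were C1qa, C1qb, C1qc, C1ra, C1s1, Masp1, C3, Cfd, Cfp, Hc, C3ar1, Serping1 and Cfi. The 5 that fell were C4a, Masp2, Cfb, C8a and C8g. Cfd and Hc had no count in any control library, so they passed the low count filter only through the DKD libraries and could be called in 1 direction only. With control replicate 1 left out as well, a choice made after the data were seen, edgeR called 11 higher and 6 lower, beside 11.8% and 9.35% of all genes, and 16 of these 17 were among the 18. A set of 9 genes passed in each of 4 fits that reuse the same libraries, which were DESeq2 and limma-voom with quality weights on all 6 and both reduced edgeR fits. These were C1qc, C1ra, C1s1, Masp1, C3 and Cfi, all higher, and C4a, Cfb and C8g, all lower. The share of all genes that passed in all 4 fits was not computed, so the 9 have no background to stand beside.

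Across the tested complement genes, 10 had every DKD kidney above every control kidney and 3 had every DKD kidney below, beside 13.8% and 11.5% of all tested genes. The 10 were C1ra, C1s1, Masp1, Mbl1, Colec11, C3, Hc, Serping1, C4bp and Cfi, and the 3 were C4a, Cfb and C8g. Hc had no count in any control kidney, and C4bp had counts of 0, 0 and 11 there. Both passed the low count filter only through the DKD libraries, and Hc could only lie higher. Among genes that were not tested, Fcna and Cfd also had every DKD kidney above every control kidney. Of the 18 genes called without DKD replicate 1, 11 had groups that did not overlap over all 6 libraries, Cfd included. Cfd had no count in any control kidney and could not lie lower. The 18 were selected with libraries that are counted again here, so the 11 are no separate support. The share among all genes called in that fit was not computed.

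**Figure D1:**
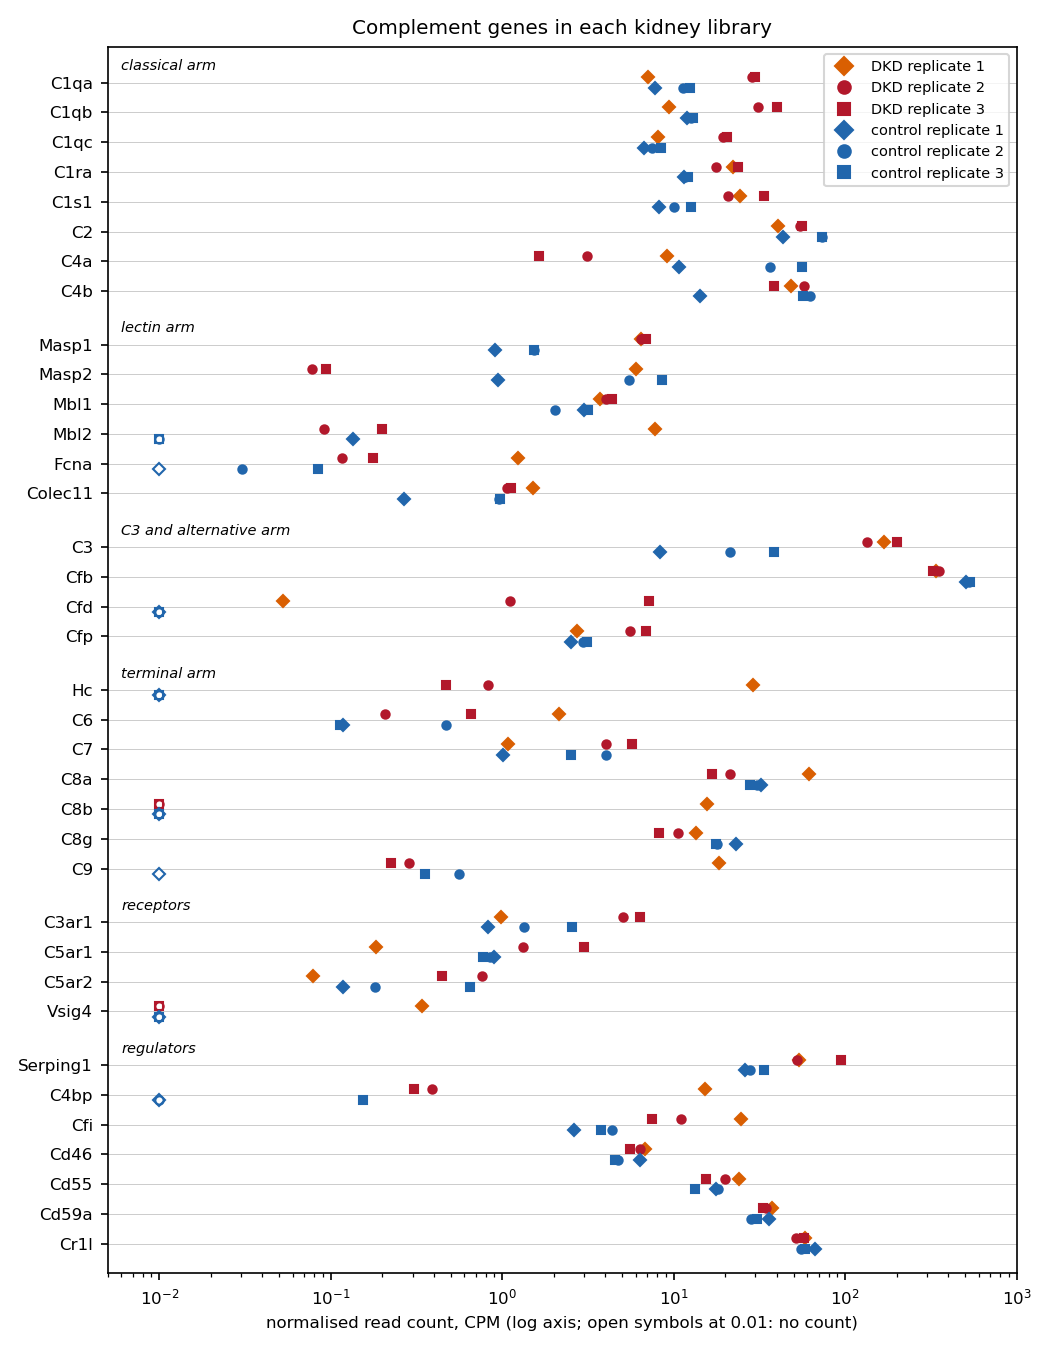
Normalised read count (CPM, log axis) of each of the 36 complement genes in each library, with DKD libraries drawn above control libraries and open symbols for libraries with no count. DKD replicate 1 lies below the controls for C1qa and C1qb, among them for C3ar1, and far above every other library for C8b, C9, Hc, C4bp and Mbl2.

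The classical arm was split by DKD replicate 1. The C1q chains C1qa, C1qb and C1qc encode the 3 polypeptides of the C1q recognition molecule. C1qb was at 9.39, 31.2 and 40.0 CPM in DKD replicates 1 to 3, against 11.9, 12.6 and 12.9 CPM in control replicates 1 to 3. DKD replicate 1 was below every control kidney and the other DKD kidneys were above all of them. C1qa showed the same pattern, with 7.13, 28.6 and 29.8 CPM in DKD and 7.78, 11.3 and 12.4 CPM in control kidneys. C1qc had 8.06, 19.3 and 20.5 CPM in DKD and 6.68, 7.48 and 8.39 CPM in control kidneys, and here DKD replicate 1 lay inside the control range. Over all 6 libraries the log2 differences of C1qa, C1qb and C1qc were 1.05 ± 0.52, 1.11 ± 0.48 and 1.08 ± 0.34 (SE), with edgeR adjusted p of 0.322, 0.275 and 0.170. Without DKD replicate 1 they were 1.46 ± 0.20, 1.50 ± 0.13 and 1.39 ± 0.15, with edgeR adjusted p of 0.00570, 0.00172 and 0.00310, and all 3 rose. In bulk tissue a larger number of cells of a type and more RNA per cell cannot be told apart.

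Macrophage markers moved with C1q. The 14 genes of a macrophage list summed to 143, 259 and 322 CPM in DKD replicates 1 to 3, against 129 to 154 CPM in the controls. Of the 14, 13 were above every control in both DKD replicates 2 and 3, but 4 of 14 in DKD replicate 1. No share of all genes is given beside these counts. The same holds for the other lists where only DKD replicates 2 and 3, or only DKD replicate 1, are counted. Adgre1, which encodes the macrophage surface protein F4/80, was at 2.81, 10.5 and 15.8 CPM in DKD and 2.31 to 4.91 CPM in control kidneys, while Csf1r, the receptor of macrophage colony-stimulating factor, was at 89.1, 58.2 and 66.3 CPM in DKD and 62.3 to 74.1 CPM in control kidneys. The part of macrophage number in the C1q values was not tested.

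The proteases C1ra and C1s1, which activate C4 and C2 once C1q has bound, were higher in all 3 DKD kidneys. C1s1 was at 24.5, 20.8 and 33.6 CPM in DKD and at 8.16, 10.1 and 12.6 CPM in control kidneys, a log2 difference of 1.35 ± 0.23 (SE; edgeR adjusted p = 0.103, and 0.0133 without DKD replicate 1). C1ra was at 22.1, 17.6 and 23.9 CPM in DKD and at 11.4, 11.6 and 12.2 CPM in control kidneys, a log2 difference of 0.85 ± 0.14 (edgeR adjusted p = 0.103, and 0.0180 without that library). Neither gene's groups overlapped, and DKD replicate 1 lay between the other DKD kidneys for both. Markers of fibroblasts and mesangial cells were also higher in all DKD kidneys. The 10 genes of that list summed to 234, 205 and 311 CPM in DKD and 83.8 to 133 CPM in control kidneys. Of the 10, 7 were above every control in every DKD kidney, beside 13.8% of all tested genes. The part of these cells in the C1ra and C1s1 values was not tested.

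C4b encodes C4, the component that C1s and MASP2 cut. C4a is its near-identical relative in mice, known as Slp for the sex-limited protein, which C1s does not cut and whose expression depends on androgen in many strains. RefSeq lists it as a transcribed pseudogene in build GRCm38.p6. The sex of the mice is not given, and reads from one gene can be counted for the other. C4a was at 9.15, 3.13 and 1.64 CPM in DKD and at 10.7, 36.4 and 56.4 CPM in control kidneys, and the groups did not overlap. Its log2 difference was -2.90 ± 0.87 (SE; edgeR adjusted p = 0.176), and without DKD replicate 1 it fell by 3.87 on the log2 scale (SE 0.87; edgeR adjusted p = 0.0475). C4b did not follow. It was at 48.2, 57.4 and 38.5 CPM in DKD and at 14.2, 62.0 and 57.0 CPM in control kidneys, with control replicate 1 the lowest of all 6 libraries and a log2 difference of 0.11 ± 0.52 (edgeR adjusted p = 0.925). C4a held 16.0%, 5.17% and 4.08% of the counts of both genes in DKD kidneys, against 42.9%, 37.0% and 49.7% in control kidneys. Counted together, as 1 feature, a choice made after the data were seen, they had 57.4, 60.5 and 40.2 CPM in DKD and 24.9, 98.4 and 113 CPM in control kidneys, a log2 difference of -0.58 ± 0.54 (edgeR adjusted p = 0.583). The sum had overlapping groups, so the separation of the groups was in C4a alone of these 3 measures.

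C2, the protease that pairs with C4b in the C3 convertase, was at 40.6, 54.7 and 56.3 CPM in DKD and at 43.3, 73.8 and 73.2 CPM in control kidneys. The groups overlapped through control replicate 1 (log2 difference -0.33 ± 0.23; edgeR adjusted p = 0.458). Without both replicates numbered 1, C2 joined the genes called lower. C2, Cfb, C4a and C4b all lie on chromosome 17 in the major histocompatibility complex, and the predicted transcript Gm20547, which overlaps C2 and Cfb on their strand, had no count in any library.

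In the lectin arm, Masp1 was about as high in each DKD kidney and lower in each control kidney. It encodes MASP1, the protease that starts lectin activation by cutting MASP2. Masp1 was at 6.44, 6.48 and 6.89 CPM in DKD and at 0.909, 1.53 and 1.52 CPM in control kidneys. Its log2 difference of 2.32 ± 0.26 (SE) had an edgeR adjusted p of 0.0978, the smallest among the tested complement genes. Without DKD replicate 1 it rose by 2.33 ± 0.28 (edgeR adjusted p = 0.00398). On the opposite strand Masp1 overlaps Rtp4, an interferon-induced gene, which was at 6.65, 17.1 and 21.95 CPM in DKD and at 3.20 to 3.75 CPM in control kidneys. The libraries mark strand, but the sources used here do not give whether counting used it, and a share of Rtp4 reads in the Masp1 counts was not tested.

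Masp2, the protease that cuts C4 and C2 in the lectin arm, behaved differently. It was at 6.00 CPM in DKD replicate 1, at 0.0779 and 0.0943 CPM in DKD replicates 2 and 3, and at 0.942, 5.48 and 8.59 CPM in control kidneys. Over all 6 libraries its log2 difference was -1.29 ± 1.70 (edgeR adjusted p = 0.708), and without DKD replicate 1 it fell by 5.84 on the log2 scale (SE 1.12; edgeR adjusted p = 0.0216). Tardbp, which overlaps Masp2 on the opposite strand, stayed between 186 and 208 CPM in DKD and between 186 and 221 CPM in control kidneys.

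The recognition molecules of the lectin arm were low in these kidneys. Mbl1, a mannose-binding lectin, was at 3.73, 4.04 and 4.35 CPM in DKD and at 3.01, 2.05 and 3.16 CPM in control kidneys (log2 difference 0.56 ± 0.24; edgeR adjusted p = 0.260, and 0.162 without DKD replicate 1). Colec11, a collectin, was at 1.51, 1.06 and 1.13 CPM in DKD and at 0.269, 0.955 and 0.973 CPM in control kidneys (0.75 ± 0.51; edgeR adjusted p = 0.445). Both genes had groups that did not overlap, yet neither passed the test in either fit. Mbl2, the other mannose-binding lectin, was at 7.80, 0.0908 and 0.200 CPM in DKD replicates 1 to 3 and at 0.135, 0 and 0 CPM in control kidneys. Fcna, a ficolin, was at 1.23, 0.117 and 0.177 CPM in DKD and at most 0.0846 CPM in control kidneys.

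C3 and factor B moved in opposite directions in the edgeR test without DKD replicate 1, and neither gene's groups overlapped over all 6 libraries. C3, the component on which all arms converge, was at 169, 133 and 199 CPM in DKD and at 8.35, 21.3 and 38.4 CPM in control kidneys. It averaged 167 ± 33.0 CPM in DKD and 22.7 ± 15.1 CPM in control kidneys (SD, n = 3 each), a fitted 7.36-fold difference (log2 2.88 ± 0.55 SE; edgeR adjusted p = 0.107). Without DKD replicate 1 C3 rose by 2.86 ± 0.64 on the log2 scale (edgeR adjusted p = 0.0480), so its size hardly depended on that library. C3 is made in liver as well. Its level in DKD replicate 1 lay between those of the other DKD kidneys, and the part of liver RNA in that level was not tested. Genes of injured tubules, a list of 8, summed to 792, 2131 and 2493 CPM in DKD and 529 to 596 CPM in control kidneys. Nearly all of that sum was Spp1, at 762, 1985 and 2336 CPM in DKD and 505 to 570 CPM in control kidneys. All 8 genes were above every control in both DKD replicates 2 and 3, and 3 of 8 in DKD replicate 1. Interferon response genes, a list of 12, summed to 211, 479 and 486 CPM in DKD and 119 to 193 CPM in control kidneys. Of the 12, 8 were above every control in every DKD kidney, beside 13.8% of all tested genes. The part of either in the C3 values was not tested.

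Cfb encodes factor B, the protease precursor of the alternative C3 convertase. It was at 340.1, 354 and 327 CPM in DKD and at 506, 531 and 537 CPM in control kidneys. The groups did not overlap and the spread within each was small, with 340.2 ± 13.4 CPM in DKD and 525 ± 16.2 CPM in control kidneys (SD, n = 3 each). The log2 difference was -0.63 ± 0.10 (edgeR adjusted p = 0.103), and Cfb fell by 0.63 ± 0.09 without DKD replicate 1 (edgeR adjusted p = 0.00837). Cfb lay in the same direction under every scaling of the libraries that was tried. Per kilobase of exon it had the highest median of the 36 genes in both groups, 120 CPM per kilobase in DKD and 188 in control kidneys. On the same scale C3 was at 32.9 CPM per kilobase in DKD, the second highest, and at 4.15 in control kidneys, where 11 complement genes were higher. Exon lengths were taken from the GENCODE M21 annotation and include all listed isoforms, so these ranks are approximate.

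Cfp, which encodes properdin, the stabiliser of the alternative convertase, was at 2.72, 5.53 and 6.94 CPM in DKD and at 2.52, 2.97 and 3.12 CPM in control kidneys. It rose without DKD replicate 1 (log2 1.11 ± 0.21; edgeR adjusted p = 0.0176), which itself lay inside the control range, as it did for C1qc. Cfd encodes factor D (adipsin), the protease that cuts factor B and is known as a product of fat cells. It was at 0.0525, 1.12 and 7.22 CPM in DKD and had no count in any control kidney. Against a floor of 3 counts in the shallowest control library, 0.0505 CPM, the mean of DKD replicates 2 and 3 was at least 82.6-fold higher. Without DKD replicate 1 the edgeR adjusted p of Cfd was 0.0305, in a test that it entered only through the 86 and 613 counts of DKD replicates 2 and 3, and without both replicates numbered 1 it was no longer called. Of the fat cell markers, Adipoq and Plin1 followed the same order. Adipoq was at 0, 0.337 and 2.03 CPM in DKD and Plin1 at 0, 0.740 and 2.76 CPM, and neither had a count in any control kidney. Of the 8 genes of the fat cell list, 6 were above every control in both DKD replicates 2 and 3 and 1 was in DKD replicate 1. The list summed to 118, 65.4 and 98.3 CPM in DKD and to 54.4 to 76.8 CPM in control kidneys, and its sum was set mainly by Car3, Fabp4 and Lipe, which other cells also express. Car3 went the other way, at 71.6, 8.58 and 13.1 CPM in DKD and 16.0 to 32.3 CPM in control kidneys. The part of fat cells in the Cfd values was not tested.

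**Figure D2:**
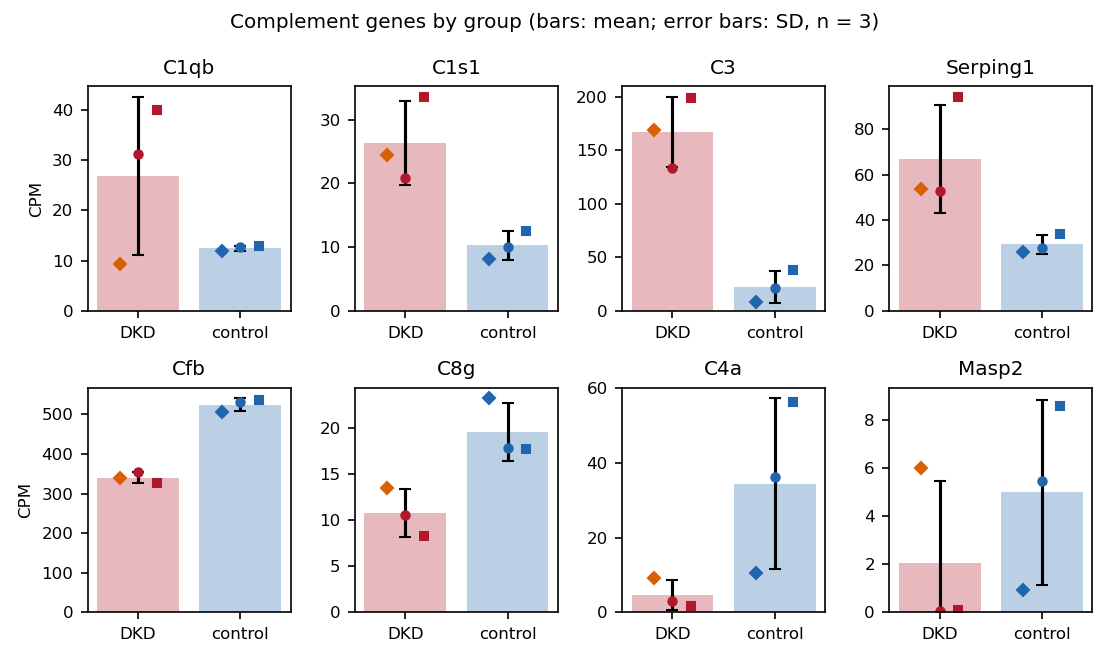
Normalised read count (CPM) of 8 complement genes in DKD and control kidneys, with bars for the mean, error bars for the SD (n = 3) and points for libraries, diamonds for replicate 1, circles for replicate 2 and squares for replicate 3. C3, C1s1 and Serping1 are higher in each DKD kidney, Cfb, C8g and C4a lower, and DKD replicate 1 departs from the other DKD kidneys for C1qb and Masp2.

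The terminal arm divided into genes seen almost only in DKD replicate 1 and genes expressed in every kidney. Hc encodes C5, whose cleavage starts the membrane attack complex. Hc was at 29.0, 0.831 and 0.471 CPM in DKD and had no count in any control kidney. DKD replicate 1 was at least 574-fold higher than the 0.0505 CPM floor, and the mean of DKD replicates 2 and 3 at least 12.9-fold higher. The edgeR adjusted p of Hc was 0.240 over all 6 libraries and 0.0148 without DKD replicate 1, where it entered the test only through the 64 and 40 counts of DKD replicates 2 and 3. C9, which forms the pore, was at 18.4, 0.286 and 0.224 CPM in DKD and at 0, 0.561 and 0.353 CPM in control kidneys. Its log2 difference of 4.35 ± 2.15 (edgeR adjusted p = 0.328) turned to -0.27 ± 1.25 without DKD replicate 1 (edgeR adjusted p = 0.912). C8b, the beta chain of C8, was at 15.6 CPM in DKD replicate 1 and had no count in any of the other 5 libraries, which puts DKD replicate 1 at least 308.5-fold above the highest of their floors. C6 was at 2.15, 0.208 and 0.660 CPM in DKD and at 0.118, 0.470 and 0.113 CPM in control kidneys (log2 difference 2.10 ± 0.96; edgeR adjusted p = 0.285).

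C8a and C8g, the alpha and gamma chains of C8, were expressed in every kidney. C8a was at 61.8 CPM in DKD replicate 1, at 21.2 and 16.8 CPM in DKD replicates 2 and 3, and at 32.5, 30.5 and 27.9 CPM in control kidneys. Its log2 difference was 0.13 ± 0.49 over all 6 libraries (edgeR adjusted p = 0.903), and without DKD replicate 1 it fell by 0.68 (SE 0.14; edgeR adjusted p = 0.0193). C8g was at 13.5, 10.6 and 8.26 CPM in DKD and at 23.2, 17.9 and 17.7 CPM in control kidneys, with no overlap between the groups. Its log2 difference was -0.86 ± 0.21 (edgeR adjusted p = 0.126), and without DKD replicate 1 it fell by 1.07 (SE 0.19; edgeR adjusted p = 0.0128). C8g overlaps Fbxw5 on the opposite strand, and Fbxw5 was also lower, at 66.3, 61.9 and 59.2 CPM in DKD and 70.5 to 77.5 CPM in control kidneys. Its log2 difference was -0.22 (edgeR adjusted p = 0.238), a smaller one than that of C8g. C7, which joins C6 in the growing complex, was at 1.08, 4.04 and 5.70 CPM in DKD and at 1.01, 4.02 and 2.53 CPM in control kidneys (0.52 ± 0.68; edgeR adjusted p = 0.704), so the groups overlapped.

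Proximal tubule markers were lower in DKD replicates 2 and 3 than in the controls. The 10 genes of that list, which includes the phosphate transporter Slc34a1, summed to 34130, 20200 and 15330 CPM in DKD and 32100 to 39910 CPM in control kidneys. The largest member in every library was Kap, at 22405.8, 11263.5 and 6919.83 CPM in DKD and 19384.5 to 26109.2 CPM in control kidneys. Kap in DKD replicate 1 lay inside the control range, so the sum there says little about the other members. The list had 9 members below every control in both DKD replicates 2 and 3, and 4 members below every control in all 3 DKD kidneys. The 4 stand beside 11.5% of all tested genes. Cfb, C8a, C8g and C4a were lower in the same libraries, and the part of the tubule cells in their values was not tested.

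The receptors of complement fragments were low, and DKD replicate 1 was below the other DKD kidneys for each of C3ar1, C5ar1 and C5ar2. C3ar1, the receptor of the C3a peptide, was at 0.985, 5.09 and 6.36 CPM in DKD and at 0.825, 1.33 and 2.55 CPM in control kidneys. It rose without DKD replicate 1 (log2 1.85 ± 0.44; edgeR adjusted p = 0.0323), where all 6 libraries gave 1.40 ± 0.71 (edgeR adjusted p = 0.325). C5ar1, the main receptor of C5a, was at 0.184, 1.32 and 2.98 CPM in DKD and at 0.892, 0.848 and 0.776 CPM in control kidneys. It missed the threshold also without DKD replicate 1 (1.35 ± 0.40; edgeR adjusted p = 0.0611). C5ar2, the second C5a receptor, was at 0.0788, 0.766 and 0.448 CPM in DKD and at 0.118, 0.182 and 0.649 CPM in control kidneys, with overlapping groups. For these receptors DKD replicate 1 was the lowest of all libraries or within the control range. Markers of neutrophils, cells rich in C5ar1, summed to 1.56, 2.92 and 4.35 CPM in DKD and 1.89 to 2.17 CPM in control kidneys. Csf3r made up most of that sum in DKD, with 0.985, 1.95 and 2.87 CPM in DKD and 0.955 to 1.36 CPM in control kidneys, and it was the only 1 of the 8 genes above every control in both DKD replicates 2 and 3. The part of neutrophils in the C5ar1 values was not tested.

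Vsig4, a macrophage receptor for C3 fragments that is best known from Kupffer cells of the liver, was at 0.341 CPM in DKD replicate 1 and had no count in the other 5 libraries. The Kupffer cell markers Clec4f and Cd5l were at 1.84 and 2.97 CPM in DKD replicate 1, with no count of Clec4f and at most 0.389 CPM of Cd5l elsewhere. The other 3 genes of that list were not highest there. Folr2 was at 1.06, 0.960 and 1.47 CPM in DKD and 0.394 to 1.33 CPM in control kidneys, Timd4 was at 0.0919, 0.104 and 0 CPM in DKD with no count in control kidneys, and Marco had no count in any library. The part of liver macrophages in the Vsig4 value was not tested.

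Of 7 regulators, Serping1 and Cfi, both secreted, rose in the edgeR test without DKD replicate 1, and the other 5 did not pass it. Serping1 encodes the C1 inhibitor, which blocks C1r, C1s and the MASP proteases. It was at 53.6, 52.7 and 94.2 CPM in DKD and at 26.1, 27.9 and 33.8 CPM in control kidneys, with no overlap. The log2 difference was 1.19 ± 0.24 (SE; edgeR adjusted p = 0.106), and Serping1 rose by 1.32 ± 0.24 without DKD replicate 1 (edgeR adjusted p = 0.0150), though it was not called without both replicates numbered 1. Cfi encodes factor I, the protease that inactivates C3b and C4b. It was at 24.8, 11.0 and 7.46 CPM in DKD and at 2.63, 4.39 and 3.78 CPM in control kidneys, a log2 difference of 2.00 ± 0.46 (edgeR adjusted p = 0.119). Without DKD replicate 1, the highest library, it rose by 1.35 ± 0.28 (edgeR adjusted p = 0.0207). C4bp, the C4b-binding protein, was at 15.3, 0.389 and 0.306 CPM in DKD and at 0, 0 and 0.155 CPM in control kidneys. Its log2 difference was 6.57 ± 2.24 over all 6 libraries (edgeR adjusted p = 0.205) and 2.66 ± 1.42 without DKD replicate 1 (edgeR adjusted p = 0.255).

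The 4 membrane regulators had overlapping groups and small differences. Cd59a, which blocks assembly of the pore, was at 37.4, 34.4 and 33.4 CPM in DKD and at 35.9, 28.3 and 30.5 CPM in control kidneys. Cr1l, which encodes the rodent regulator Crry, was at 58.4, 51.8 and 57.5 CPM in DKD and at 66.4, 55.5 and 58.4 CPM in control kidneys. Cd55, which speeds the decay of C3 convertases, was at 24.1, 19.9 and 15.5 CPM in DKD and at 17.7, 18.1 and 13.2 CPM in control kidneys. Cd46, a cofactor of factor I, was at 6.78, 6.33 and 5.55 CPM in DKD and at 6.34, 4.74 and 4.57 CPM in control kidneys. Their log2 differences were 0.15 ± 0.11 for Cd59a, -0.10 ± 0.10 for Cr1l, 0.28 ± 0.20 for Cd55 and 0.25 ± 0.20 for Cd46, and the edgeR adjusted p ran from 0.469 to 0.599. The sign for Cr1l turned when libraries were scaled by their size alone. A missed threshold does not show that these levels were equal.

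**Figure D3:**
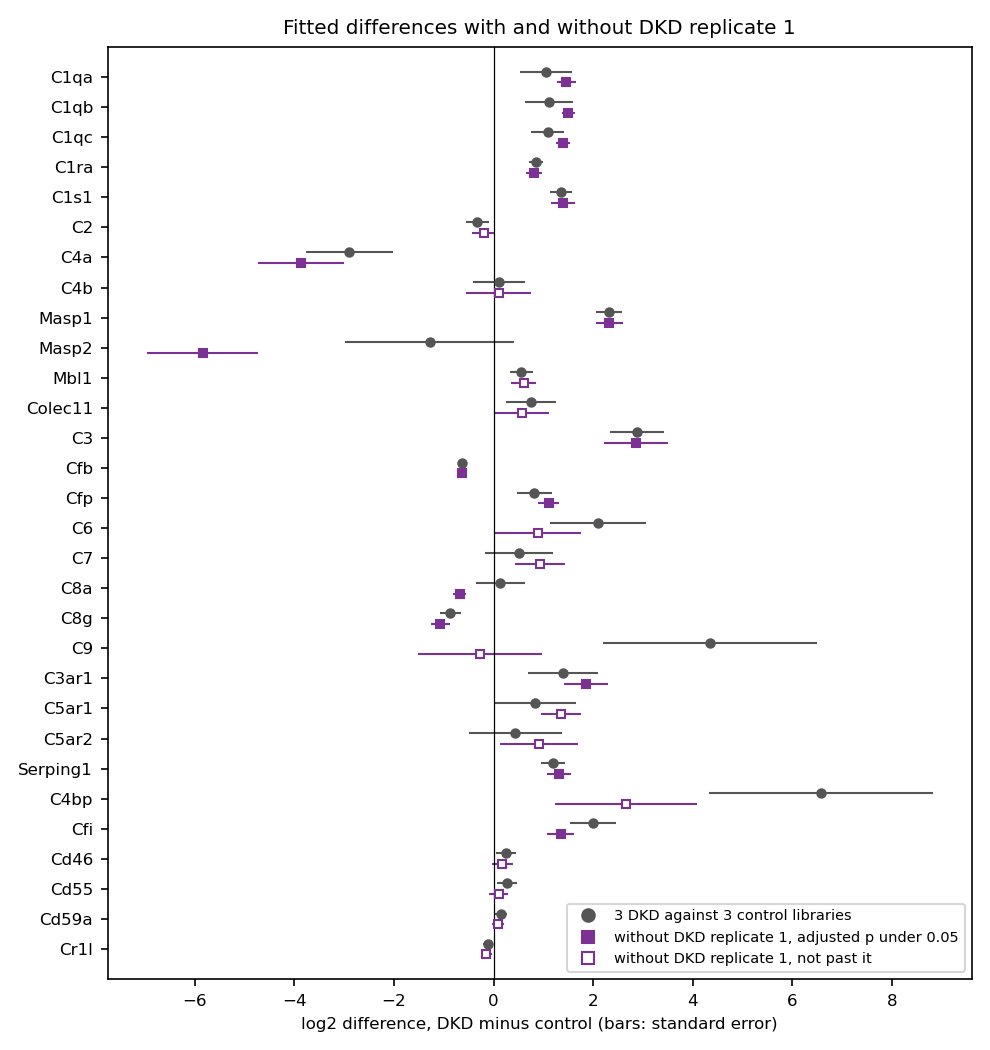
Log2 difference (DKD minus control, bars for the standard error) of the tested complement genes over all 6 libraries (grey circles) and without DKD replicate 1 (purple squares, filled where the edgeR adjusted p was under 0.05), without Hc and Cfd, which had no count in the controls. C1ra, C1s1, Masp1, C3 and Cfb have nearly the same value in both fits, whereas Masp2, C8a, C9 and C4bp shift.

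In DKD replicate 1, 7 of the 36 genes were at least 5 times above every other library, beside 0.775% of all genes with a count. These were C8b, C4bp, Mbl2, Hc, C9, Fcna and Vsig4. The ratio to the highest other library was 39.4 for C4bp, 38.9 for Mbl2, 34.9 for Hc, 32.9 for C9 and 6.99 for Fcna, and for Vsig4 it was at least 6.76 against the floor. The values nearest below the limit of 5 were 3.26 for C6, 2.26 for Cfi and 1.90 for C8a. The hepatocyte list had a median ratio of 36.3 in the same library, and its 8 defining genes ranged from 2.59 to at least 7686. The liver is the main source of C8b, C9, C5, Mbl2 and C4bp in mice, as background. Whether RNA of liver cells accounts for their levels in DKD replicate 1 was not tested, and no liver library was at hand to compare with. For C3, C1ra, C1s1, Serping1 and Masp1 DKD replicate 1 was not the highest library, and their differences from control were 0.81 to 2.86 on the log2 scale without it. A gene that other kidneys also express can stay under the limit of 5 whatever its source. Masp2 had a ratio of 0.699, with 6.00 CPM in DKD replicate 1 and 0.0779 and 0.0943 CPM in DKD replicates 2 and 3. The part of liver RNA in the levels of these genes in DKD replicate 1 was not tested.

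**Figure D4:**
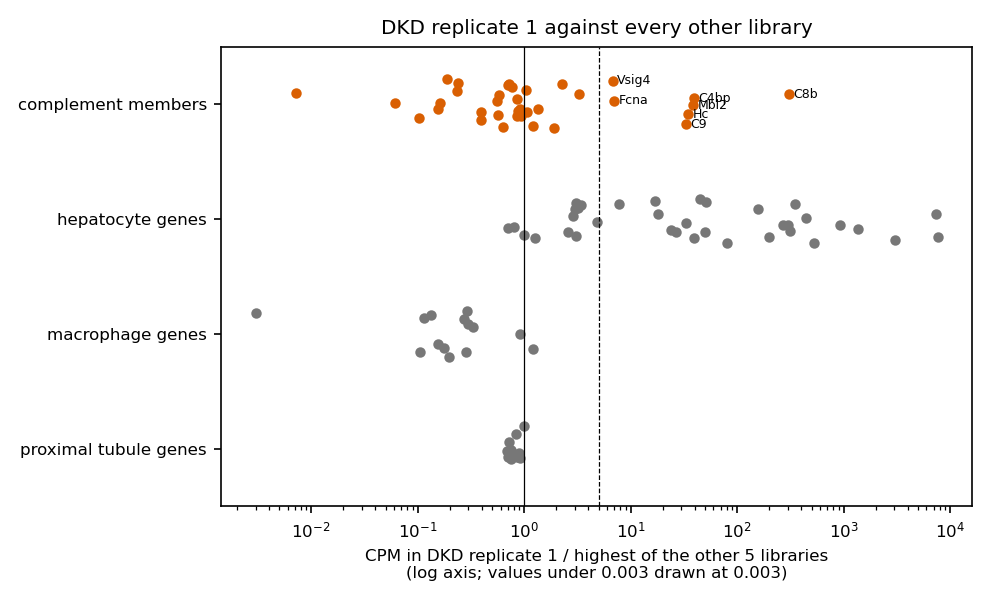
CPM in DKD replicate 1 divided by the highest of the other 5 libraries (log axis) for each complement gene and for genes of 3 marker lists, with a solid line at 1 and a dashed line at 5. The 7 named complement genes lie above 5, as 24 of 36 hepatocyte genes do, while macrophage genes lie at or below 1.20 and proximal tubule genes below 1.

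The promoters of these genes were searched for 3 short motifs on both strands in RefSeq windows of build GRCm38.p6, from 250 bases before to 50 bases after a transcript start. Windows were found for 28 of the 36 genes, 31 windows in all. The interferon element, GAAA and GAAA with 2 bases of any kind between them, was in 3 of 31 windows, beside 3.44% of all 32851 windows, and the STAT element TTCNNNGAA in 5 of 31, beside 8.30%. GTTAAT, any base and then ATT, which is part of the recognition sequence of HNF1, a transcription factor of liver and kidney tubule cells, was in 2 of 31, beside 0.399%. The 2 genes with the HNF1 part were Hc and C4bp, both among the genes far higher in DKD replicate 1. The interferon element was in windows of Cd46, Cd59a and Colec11, and the STAT element in those of C1ra, C7, C8a, Colec11 and Masp2. C8b, C9, Mbl2, Fcna and Vsig4, the other genes at least 5 times higher there, had windows with none of the 3 motifs. The 250 bases before the start are shown for Hc and C4bp with the match in capitals. They are also shown for C3, which differed from control as much without DKD replicate 1 and whose window held none of the motifs. A match shows only that the letters are there.
Hc, chr2:35061413-35061662, minus strand: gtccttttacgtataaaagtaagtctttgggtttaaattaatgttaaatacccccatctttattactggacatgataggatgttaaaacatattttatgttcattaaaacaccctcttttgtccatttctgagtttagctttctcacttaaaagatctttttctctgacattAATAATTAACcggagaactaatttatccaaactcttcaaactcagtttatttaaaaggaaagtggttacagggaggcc
C4bp, chr1:130661619-130661868, minus strand: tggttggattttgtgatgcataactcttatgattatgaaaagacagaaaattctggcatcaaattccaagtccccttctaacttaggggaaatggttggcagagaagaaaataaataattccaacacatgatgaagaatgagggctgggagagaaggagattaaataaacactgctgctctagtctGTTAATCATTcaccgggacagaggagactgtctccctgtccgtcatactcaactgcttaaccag
C3, chr17:57228137-57228386, minus strand: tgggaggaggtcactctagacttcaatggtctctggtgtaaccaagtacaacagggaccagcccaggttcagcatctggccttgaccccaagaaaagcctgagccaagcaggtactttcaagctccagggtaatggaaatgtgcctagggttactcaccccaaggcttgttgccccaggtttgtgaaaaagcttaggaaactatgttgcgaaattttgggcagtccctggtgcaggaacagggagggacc

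Other genes of the complement system were read from a separate list of 29, of which 28 were in the table and 21 were tested. None passed over all 6 libraries with edgeR, where 7 had an unadjusted p under 0.05, all higher, while DESeq2 called 2 and limma-voom with quality weights 3. Without DKD replicate 1, edgeR called 4 of 21 higher and 1 lower, beside 9.67% and 5.84% of all genes. Over all 6 libraries the 7 with an unadjusted p under 0.05 stand beside 12.2% of all genes, and the 2 and 3 calls, all higher, beside 7.08% for DESeq2 and 9.94% for limma-voom with quality weights. DESeq2 gave an adjusted p to 17 of the 21 genes. Clu, which encodes clusterin, a fluid phase inhibitor of the terminal complex and a product of injured tubules, was at 279.5, 516 and 542 CPM in DKD and at 224, 241 and 156 CPM in control kidneys (log2 1.11 ± 0.28; edgeR adjusted p = 0.136, and 0.00570 without DKD replicate 1). Cd93, an endothelial and myeloid receptor once described as a C1q receptor, was at 19.6, 21.7 and 31.2 CPM in DKD and at 12.8, 13.1 and 15.4 CPM in control kidneys (0.81 ± 0.19; edgeR adjusted p = 0.119, and 0.0169 without it). Susd4, a membrane regulator, was at 5.96, 7.59 and 6.67 CPM in DKD and at 4.63, 4.09 and 5.33 CPM in control kidneys (0.53 ± 0.19; edgeR adjusted p = 0.205). The liver genes Cfhr2, Cpn2 and Vtn were at 19.1, 9.42 and 65.3 CPM in DKD replicate 1 and at no more than 0.589 CPM in any other library. The other 3 genes called without DKD replicate 1 were the integrin chains Itgax and Itgb2, which form a receptor for iC3b and were higher, and C1rl, a C1r-like protease, which was lower.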

How the data were processed

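The authors deposited 1 table of raw read counts per Ensembl gene, without normalisation. The submitters' processing notes name the tools fastp, HISAT2, StringTie and edgeR and the build GRCm39. For versions, order, roles, annotation and strand setting, the answer is not given in the sources used here. Per the labels' protocols, libraries were poly(A)-selected and strand-marked.

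Symbols, read from a GRCm38 reference, were found for 55141 of 55401 IDs. How reads shared by near-identical genes were counted is not known. A count of 0 allows up to 3 counts, 0.0353 to 0.0505 CPM across libraries, which covers counting error only.

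Counts were tested with edgeR 4.0.16 in R 4.3.3 (robust quasi-likelihood test, two-sided, TMM factors, default low count filter, Benjamini-Hochberg over 19197 genes, threshold 0.05). CPM values use the same factors, and standard errors come from the test statistic. Alternatives were RLE factors, library size alone, no filter, DESeq2 1.42.0, limma-voom (limma 3.58.1) with sample quality weights, a replicate block and leaving out each library. The tests were tried on simulated counts. Leaving out both replicates numbered 1 and adding up C4a and C4b were chosen after the data were seen.

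The genes and lists were chosen with earlier results of these data known. Values in every library go to genes past the threshold with or without DKD replicate 1, with groups that do not overlap, or at least 5 times higher in DKD replicate 1 than in every other library. That rule takes 26 of the 36, and it also takes 12 of the other complement genes, limited to 6 by p. The remaining 10, with Itgax, Itgb2 and C1rl, are named outside it.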

Additional observations from a re-analysis of the deposited data

How the results depend on the processing

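No complement gene passed with RLE factors, library size alone, no low count filter or the replicate block, nor without DKD replicate 2 or 3 or any 1 control library. Over the 6 fits that leave out 1 library, the number called ran from 0 to 18 for the complement genes, from 0 to 3101 for all genes and from 0 to 5 for the other complement genes, each highest without DKD replicate 1. DESeq2 called 10 complement genes, 1749 of all genes and 2 other complement genes, weighted limma-voom 12, 3397 and 3, and edgeR without both replicates numbered 1 called 17, 4185 and 7. Without the low count filter 4 genes of the whole table passed. Those counts of 0 stand beside 12 complement genes at an unadjusted p under 0.05 in the edgeR test on 6 libraries. Whether the replicate numbers pair the libraries is not stated in the labels. Correlations of same-numbered deviations were 0.0342, 0.0261 and 0.0171, and every DKD library correlated best with its own number. The block called 0 of 31 complement genes and 0 of all genes. The edgeR fit without the block called 0 as well, so these counts cannot decide whether the libraries are paired.

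Of 403 log2 differences of tested complement genes under alternatives, 13 turned sign, in 6 genes, and in each the cause was not tested. C4b was at -0.0062 with weighted limma-voom, -0.04 without DKD replicate 2, -0.31 without control replicate 1 and -0.32 without both replicates 1, with -0.31 to 0.43 over the fits that leave out 1 library. C8a was at -0.47 with weighted limma-voom, -0.12 with the replicate block, -0.68 without DKD replicate 1 and -0.63 without both replicates 1, with -0.68 to 0.45 over those fits. C9 was at -0.27 without DKD replicate 1 and -0.85 without both replicates 1, with -0.27 to 5.11 over those fits. C5ar1 was at -0.15 without DKD replicate 3 (-0.15 to 1.35 over those fits), C5ar2 at -0.26 without DKD replicate 2 (-0.26 to 1.51), and Cr1l at 0.048 with library size alone. That scaling put the median of all tested genes at 0.17, beside 0.02 with TMM factors.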
